A study of Mus musculus with 4 samples.

Results

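Prkcd, Gbx2, Shox2, Synpo2, Rgs16, Tnnt1, Slitrk6, Lef1, Tcf7l2 and Ramp3 are 10 of the 32285 genes in a spatial expression series of the mouse brain, and they were picked by symbol because their transcripts lie mostly in the thalamus. The rule thus used their regional pattern, so each contrast of thalamus with another region is a description and carries no test. Expression was measured with Visium slides, on which each spot captures the RNA of a small patch of a frozen section and counts its molecules as UMIs (unique molecular identifiers). The 4 libraries were 1 each from young ethanol, young vehicle, aged ethanol and aged vehicle female C57BL/6 mice, wild type in every group. Young mice were 3 to 4 and aged mice 18 to 20 months old, and they were gavaged with ethanol at 3 g/kg or with water every other day, 10 times over 18 days. Coronal sections of 10 µm were cut from the left hemisphere between bregma -2 and -2.2 mm, from brains taken 18 h after the last gavage. Each combination of age and gavage has 1 library and so no replicate spread was measured, no p-value was computed, and the 95% intervals below cover counting error alone.

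The thalamus relays sensory and motor signals to the neocortex through excitatory relay neurons, which are grouped into nuclei that differ in their targets and in the genes they use. Its neurons are born in a part of the embryonic diencephalon that is exposed to Wnt signals, in which the protein beta-catenin joins transcription factors of the TCF/LEF family on DNA. Tcf7l2 and Lef1 belong to that family and continue to be transcribed in adult thalamic neurons, unlike in most neurons of the neocortex. The reticular nucleus around the thalamus is made of inhibitory neurons, and the habenula above it is a separate nucleus of the same embryonic region.

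Among the transcription factors, Gbx2 (chr1:89927962-89931176) and Shox2 (chr3:66971723-66981771) encode homeodomain proteins, and Gbx2 is needed for thalamic neurons to take on and keep their fate in the mouse. Lef1 (chr3:131110297-131224357) and Tcf7l2 (chr19:55741797-55933659) encode the DNA-binding partners of beta-catenin. In the signalling class, Prkcd (chr14:30595353-30626414) encodes the delta isoform of protein kinase C and Rgs16 (chr1:153740353-153745468) a protein that shortens G protein signals. Ramp3 (chr11:6658506-6677478) encodes a partner protein of receptors of the calcitonin receptor family. Slitrk6 (chr14:110747338-110755204) encodes a membrane protein with leucine-rich repeats that acts in neurite growth and synapses. The remaining members encode proteins of the contractile and actin apparatus: Tnnt1 (chr7:4504569-4515975) the slow skeletal form of troponin T, and Synpo2 (chr3:123076519-123236168) a relative of synaptopodin that binds actin. Positions are those of RefSeq for build GRCm38.p6.

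RefSeq listed a promoter for 10 of the 10 members, 15 start sites in all, and the 250 bases before each start were searched on both strands for CTTTGA, the core of the TCF/LEF motif, and TAATTA, the core bound by many homeodomain proteins. CTTTGA was found in 3 of these 15 windows, 1 each of Lef1, Prkcd and Shox2, and stood in 13.8% of all 32851 listed windows of the same length. The Lef1 window with it was that of its listed start number 4. TAATTA was found in 1 of the 15, that of Synpo2, and stood in 4.84% of all windows. These motifs do not overlap each other. The windows of Gbx2, Tnnt1 and Shox2 are shown because Gbx2 and Tnnt1 had opposite patterns across thalamic subregions, Tnnt1 differed most between gavage labels, and Shox2 was the most even of these across subregions. They lie at chr1:89931177-89931426, chr7:4515976-4516225 and chr3:66981772-66982021, each on the minus strand, and capitals mark CTTTGA or its complement.
Gbx2: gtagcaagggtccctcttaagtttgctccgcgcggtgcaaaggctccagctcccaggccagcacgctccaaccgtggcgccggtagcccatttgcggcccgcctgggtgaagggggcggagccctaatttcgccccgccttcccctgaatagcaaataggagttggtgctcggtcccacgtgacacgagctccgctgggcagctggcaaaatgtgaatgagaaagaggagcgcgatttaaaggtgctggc
Tnnt1: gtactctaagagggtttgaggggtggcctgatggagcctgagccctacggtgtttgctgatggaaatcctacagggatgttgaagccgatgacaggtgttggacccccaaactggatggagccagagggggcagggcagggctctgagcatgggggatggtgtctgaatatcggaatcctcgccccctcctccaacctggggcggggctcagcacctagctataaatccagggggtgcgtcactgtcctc
Shox2: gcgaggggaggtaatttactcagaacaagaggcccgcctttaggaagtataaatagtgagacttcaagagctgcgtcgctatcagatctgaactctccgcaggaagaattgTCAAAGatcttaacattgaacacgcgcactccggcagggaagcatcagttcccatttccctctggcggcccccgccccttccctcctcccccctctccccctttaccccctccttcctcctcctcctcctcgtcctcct
Gbx2 and Tnnt1 held neither motif in these windows, and Shox2 held 1 copy of CTTTGA, read on the other strand.

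After spots with under 500 UMIs were left out, the libraries held 2642 to 2881 spots each, 45995677 to 58305713 UMIs, and a median of 15660 to 19077 UMIs per spot. Regions were groups of spots with similar expression, clustered without the 10 members. The thalamic cluster held 475 spots in young ethanol, 201 in young vehicle, 487 in aged ethanol and 210 in aged vehicle, 16.5%, 7.40%, 18.4% and 7.77% of the kept spots. It was named from 8 relay neuron markers that include no member, and 8 of 8 were detected in it in each library, at a summed level of 3131, 3335, 3334 and 3471 CPM (counts per 1000000 UMIs of the spots summed) in the same order of libraries. A habenular cluster had 27 spots in young ethanol, 0 in young vehicle, 22 in aged ethanol and 0 in aged vehicle. The numbers of thalamic and habenular spots thus followed the gavage label. The level at which each brain was cut was not measured here, and any difference in it cannot be told apart from gavage. Slide positions are reused between libraries: 1205 positional barcodes occurred in all 4, which marks positions and not shared tissue. Neocortical spots numbered 652, 659, 455 and 485 and hippocampal spots, of CA1, CA3 and the dentate granule layer, 132, 123, 152 and 140 in the same order.

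Each of the 10 members was far higher in thalamic spots than in the neocortex and the hippocampus of its own section. Prkcd stood at 1486 CPM in thalamic spots of young ethanol, 1342 in young vehicle, 1466 in aged ethanol and 1519 in aged vehicle. In neocortical spots of the same libraries Prkcd had 13.5, 7.17, 23.5 and 9.55 CPM, and in hippocampal spots 50.1, 28.1, 88.6 and 41.4 CPM. The thalamic values thus lay close together and did not approach those of either other region, while in neocortical and hippocampal spots both ethanol sections had more Prkcd than the vehicle section of their age.

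Of the homeodomain genes, Gbx2 had 57.0 CPM in thalamic spots of young ethanol, 41.5 in young vehicle, 58.3 in aged ethanol and 53.8 in aged vehicle. In neocortical spots it had 0.479, 0.0618, 0.597 and 0.386 CPM, which is 8, 1, 7 and 4 UMIs. In hippocampal spots Gbx2 had 11 UMIs in young ethanol, 0 in young vehicle, 22 in aged ethanol and 1 in aged vehicle. With the 0 in young vehicle set to 3 UMIs (0.765 CPM), the log2 ratio of thalamic over hippocampal Gbx2 was 5.76 there, a value that rests on this setting. In aged vehicle the log2 ratio was 7.64 (5.14 to 12.96). Shox2 had 166, 137, 172 and 144 CPM in thalamic spots in the order young ethanol, young vehicle, aged ethanol, aged vehicle, against 0.779, 0.185, 2.47 and 0.868 in neocortical spots. No other member had a wider median gap to the neocortex than Shox2, 7.55 on the log2 scale, with Prkcd at 7.05 and Gbx2 at 7.01.

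The TCF/LEF genes were both present throughout the thalamus. Tcf7l2 had 420 CPM in thalamic spots of young ethanol, 457 in young vehicle, 459 in aged ethanol and 532 in aged vehicle, against 6.23, 5.50, 9.55 and 8.59 in neocortical spots. Lef1 had 80.8, 77.8, 93.2 and 113 CPM in thalamic spots in that order, against 3.36, 1.67, 2.90 and 2.51 in neocortical spots. The aged vehicle section had the highest thalamic value of both genes.

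The members that encode signalling and structural proteins showed the same gap. In thalamic spots Rgs16 had 216, 188, 242 and 194 CPM and Slitrk6 39.2, 27.5, 36.0 and 32.2 CPM in the order young ethanol, young vehicle, aged ethanol, aged vehicle. Synpo2 had 222, 209, 224 and 191 CPM and Ramp3 374, 400, 368 and 379 CPM in that order. Tnnt1 was the member whose thalamic value varied most, with 273 CPM in young ethanol, 494 in young vehicle, 310 in aged ethanol and 446 in aged vehicle, so that both vehicle sections lay above both ethanol sections.

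The rule for a regional difference asked for 20 or more UMIs over both regions and a gap of 2-fold or more, with the same sign, within every one of the 4 sections. By it 10 of 10 members were higher in thalamus than in neocortex. Of 12877 genes tested, 4.36 percent were higher, and since the members were picked for this contrast nothing is read from the count. The members' median log2 ratio was 6.06, against -0.06 over all genes. In comparison with hippocampal spots 10 of 10 members were higher, where 7.43 percent of 11464 genes were, and the median was 4.73 against -0.12 over all genes. By member the median log2 ratio to the hippocampus ran from 4.35 (Synpo2) to 5.42 (Shox2), a narrower range than the 3.95 (Ramp3) to 7.55 (Shox2) against the neocortex.

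**Figure D1:**
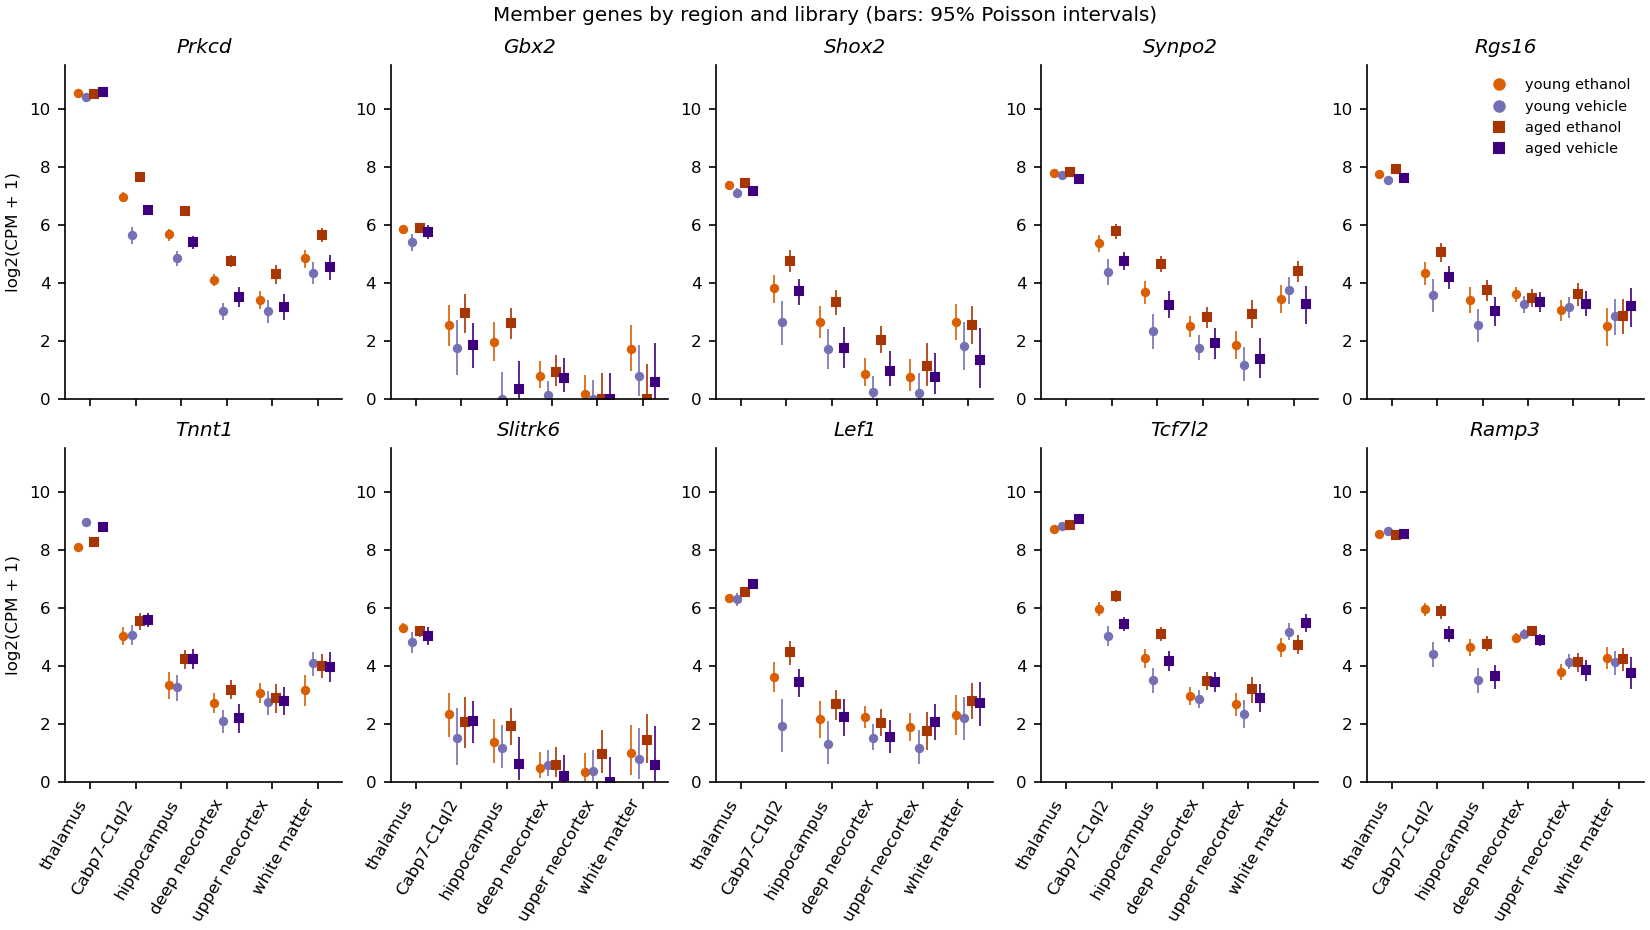
Level of each member, as log2(CPM + 1), in 6 groups of spots, with 1 point per library and 95% Poisson intervals for counting error. Thalamic spots stood above every other group for each of the 10 genes, by a median log2 ratio of 6.06 over neocortical and 4.73 over hippocampal spots.

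The share of each member's UMIs that lay in thalamic spots depends on how much thalamus a section contained. Over the libraries the median share of a section's UMIs that lay in thalamic spots was 81.5% for Gbx2, 79.4% for Prkcd, 77.9% for Shox2 and 76.6% for Tnnt1. It was 58.7% (42.9% to 77.6%) for Tcf7l2 and 60.4% (45.4% to 71.3%) for Ramp3, the lowest medians among the members. The lowest share over the libraries was 49.1% for Rgs16 and 49.2% for Slitrk6, and for the remaining 6 members it was higher.

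Per spot, each cut to 5000 UMIs drawn at random, nearly every thalamic spot held a Prkcd UMI, and fewer held one of Gbx2, which is far lower in level. Prkcd was found in 95.2% of thalamic spots in young ethanol, 97.4% in young vehicle, 93.6% in aged ethanol and 96.5% in aged vehicle, against 7.01%, 2.89%, 11.4% and 2.34% of neocortical spots. Gbx2 was found in 21.1%, 17.6%, 26.0% and 22.7% of thalamic spots in that order, against 0.467%, 0%, 0.659% and 0.425% of neocortical spots, where the 0 of 658 spots has an exact Clopper-Pearson limit of 0.559%. Without thinning, Gbx2 was found in 51.2%, 29.4%, 42.3% and 40.5% of thalamic spots, which had a median of 18000, 10836, 12220 and 11090 UMIs, and in 1.23%, 0.152%, 1.32% and 0.825% of neocortical spots, with medians of 25317, 23995, 25286 and 20952 UMIs. Thinning left out 0, 8, 6 and 12 thalamic and 10, 1, 0 and 14 neocortical spots. The share of spots with a UMI follows a gene's level and the depth, so it does not show where a gene is absent. A spot covers several cells, so a share of spots is not a share of neurons, and fewer cells of a type in a spot and less RNA in each cell cannot be told apart in any level given here.

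The thalamus fell into 5 subregions when its spots were clustered again without the members, and Gbx2, Tnnt1 and Prkcd differed most among them. The subregions are called by pairs from their 10 leading genes. Those of the Myoc-Dcn subregion included Gfap, and Dcn and Igf2, which also served as markers of the meninges. The part of mixed spots in the levels of that subregion was not tested. The Calb2-Cbln4 subregion held 131 spots in young ethanol, 31 in young vehicle, 128 in aged ethanol and 30 in aged vehicle. The Tnc-Rgs14 subregion held 114, 53, 132 and 54, the Myoc-Dcn subregion 80, 56, 99 and 61, and the Sorcs3-Wnt9b subregion 48, 57, 43 and 60. The Syt2-Pvalb subregion held 102 spots in young ethanol and 85 in aged ethanol but 4 in young vehicle and 5 in aged vehicle, so its values are read from the ethanol sections. The highest of the 5 subregions was 7.47-fold the lowest in young ethanol and 9.11-fold in aged ethanol for Gbx2, 7.44-fold and 6.65-fold for Tnnt1, and 3.31-fold and 4.27-fold for Prkcd. For the other members this fold was between 1.52 (Synpo2) and 2.17 (Tcf7l2) in young ethanol, and between 1.62 (Rgs16) and 2.42 (Ramp3) in aged ethanol.

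Gbx2 and Tcf7l2 had their highest or near highest level in the Calb2-Cbln4 subregion, where Prkcd and Tnnt1 had their lowest. Gbx2 stood there at 106 CPM in young ethanol, 87.9 in young vehicle, 116 in aged ethanol and 117 in aged vehicle, against 14.1 in young ethanol and 12.7 in aged ethanol in the Syt2-Pvalb subregion. Prkcd ran the other way, with 655, 571, 544 and 595 CPM in the Calb2-Cbln4 subregion, against 2167 in young ethanol and 2323 in aged ethanol in the Syt2-Pvalb subregion. Both ethanol sections showed the same order of these subregions for both genes.

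Tnnt1 followed the order of Prkcd, with 81.6 CPM in young ethanol, 195 in young vehicle, 94.0 in aged ethanol and 184 in aged vehicle in the Calb2-Cbln4 subregion. In the Syt2-Pvalb subregion it had 607 CPM in young ethanol and 625 in aged ethanol, and among vehicle sections it was highest in the Sorcs3-Wnt9b subregion, with 693 in young vehicle and 609 in aged vehicle. Tcf7l2 had 574, 584, 630 and 742 CPM in the Calb2-Cbln4 subregion and 264 in young ethanol and 300 in aged ethanol in the Syt2-Pvalb subregion. On the log2 scale the Syt2-Pvalb over the Calb2-Cbln4 subregion was 2.89 in young ethanol and 2.73 in aged ethanol for Tnnt1, and 1.73 and 2.09 for Prkcd. It was -1.12 in young ethanol and -1.07 in aged ethanol for Tcf7l2, and -2.90 and -3.19 for Gbx2.

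The other members were spread more evenly, although Ramp3 and Lef1 had a common peak. Ramp3 was highest in the Tnc-Rgs14 subregion, at 512 CPM in young ethanol, 519 in young vehicle, 521 in aged ethanol and 477 in aged vehicle. Among subregions with 30 or more spots Lef1 was highest there as well, at 113 CPM in young ethanol, 118 in young vehicle, 142 in aged ethanol and 140 in aged vehicle. Shox2 had a log2 ratio of the Syt2-Pvalb over the Calb2-Cbln4 subregion of 0.35 in young ethanol and 0.22 in aged ethanol, and Slitrk6 had -0.28 and -0.15. Neither subregion was an extreme for Shox2, which was highest in Sorcs3-Wnt9b and lowest in Myoc-Dcn in each library. Its highest subregion was 1.55-fold the lowest in young ethanol, 1.51-fold in young vehicle, 1.64-fold in aged ethanol and 2.55-fold in aged vehicle.

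**Figure D2:**
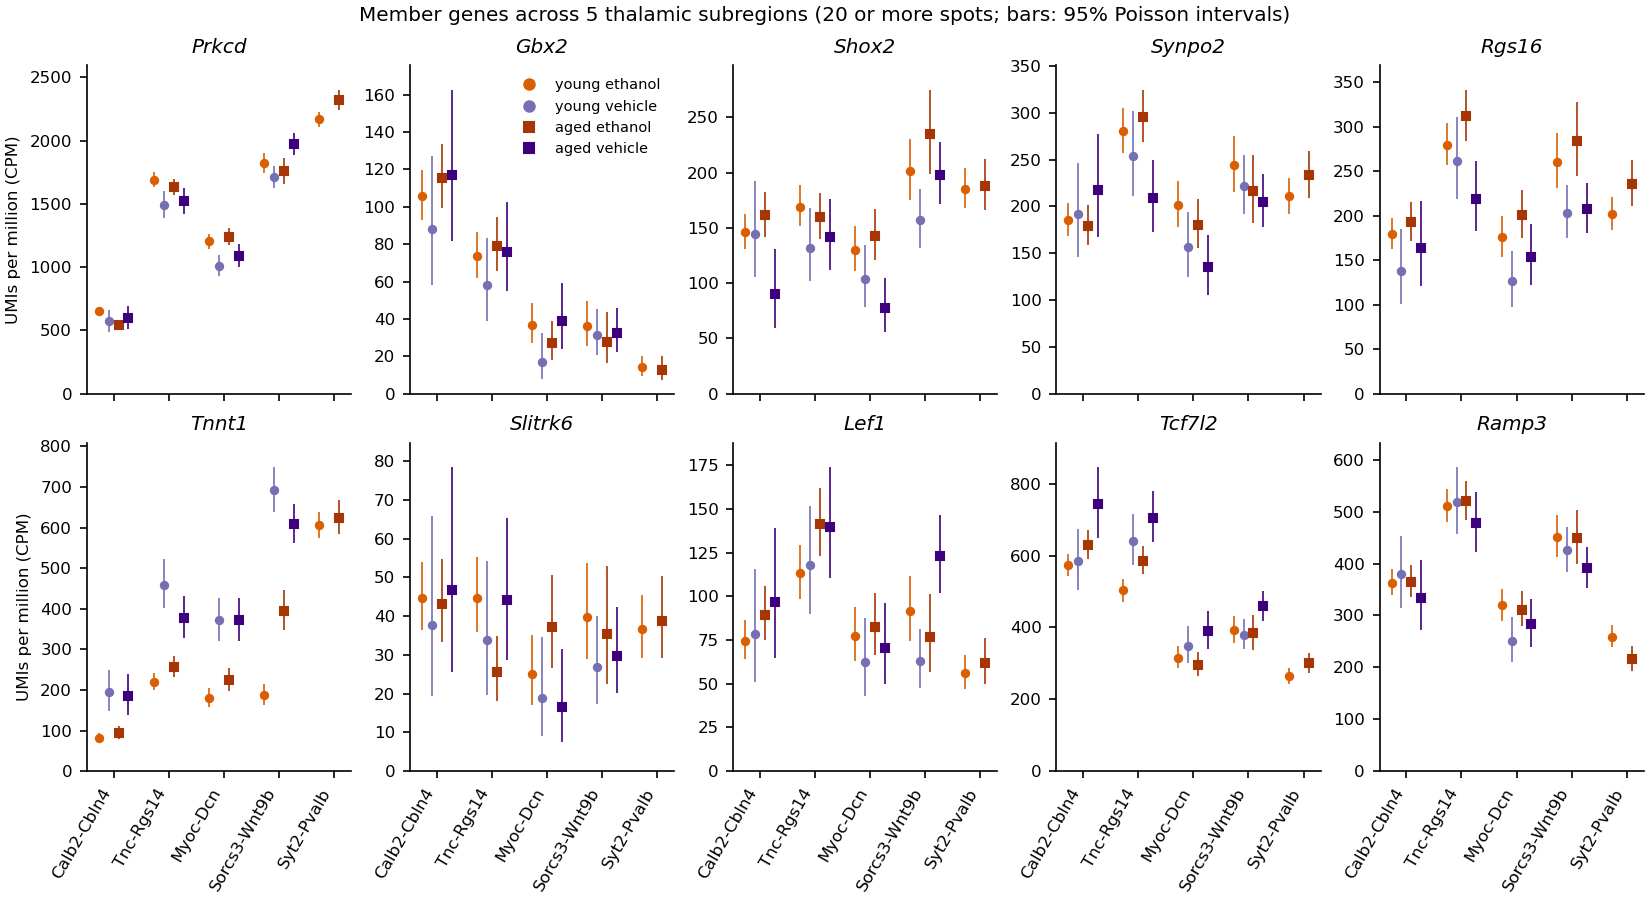
Level of each member, in CPM, in the 5 thalamic subregions, with 1 point per library of at least 20 spots and 95% Poisson intervals for counting error. Gbx2 and Tcf7l2 run down from the Calb2-Cbln4 to the Syt2-Pvalb subregion (Gbx2 had 106 and 14.1 CPM in young ethanol), whereas Prkcd and Tnnt1 run up.

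Spot by spot the members were only weakly tied to each other within the thalamus. Over the 475 spots of young ethanol, 193 of young vehicle, 481 of aged ethanol and 198 of aged vehicle, thinned to the same depth, the pair with the highest median correlation was Prkcd with Tnnt1 (Pearson 0.36, 0.26 to 0.38 over the libraries). Prkcd with Rgs16 followed at 0.21 and Prkcd with Ramp3 at 0.18. Gbx2 with Tnnt1 and Tcf7l2 with Tnnt1 both had a median of -0.09. The spots of a library share their section and neighbouring spots share tissue, and most members had few UMIs per spot, so these values describe the sections and weak ones say little.

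The members were also counted in hippocampal and neocortical spots, at a small fraction of the thalamic level. Whether these UMIs came from cells of those spots, from mixed spots or from spread of RNA was not tested. Over the 10 members and 4 libraries the hippocampal level was a median of 3.89% of the thalamic level and the neocortical level 1.59%. The Cabp7-C1ql2 region, a group of hippocampal spots outside the named layers that is led by dentate genes and Cabp7, had the highest share. There the median member reached 11.1% of its thalamic level in young ethanol, 5.80% in young vehicle, 15.1% in aged ethanol and 8.81% in aged vehicle. In CA3 it was 4.97%, 2.76%, 5.16% and 3.04%, in CA1 4.03%, 1.53%, 7.92% and 2.42%, and in upper neocortex 1.24%, 1.03%, 2.34% and 1.04%, in the same order. At each age the ethanol section, with more thalamic spots, had the higher value in each of these regions, and no distance of a spot from the thalamus was measured.

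For hippocampal markers in thalamic spots the values differed by gene. Prox1, a transcription factor gene used as a dentate marker, stood in thalamic spots at 27.2% of its dentate level in young ethanol, 28.2% in young vehicle, 19.6% in aged ethanol and 18.8% in aged vehicle. C1ql2, a dentate granule marker, stood in thalamic spots at 0.776% of its dentate level in young ethanol, 1.499% in young vehicle, 0.733% in aged ethanol and 0.550% in aged vehicle. Fibcd1, a CA1 marker, stood at 0.844%, 1.36%, 1.41% and 0.193% of its CA1 level. The other markers examined were Dsp, Tdo2 and Lct of the dentate layer, at 0% to 1.11% of their dentate level. Mpped1 of CA1 stood at 1.90% to 2.36% of its CA1 level. Among these markers each value except those of Prox1 was below the hippocampal median of the members, 3.89%. Stxbp6 of the dentate list, Wfs1 and Man1a of the CA1 list and the CA3 list were not examined in this way. In thalamic spots of young ethanol the whole dentate list summed to 130 CPM and the CA3 list to 290 CPM.

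Summed over the 10 members, thinned spots showed the step between regions directly. Thalamic spots held a median of 15 member UMIs in young ethanol, 16 in young vehicle, 16 in aged ethanol and 18 in aged vehicle, and none of them held 0. Of CA1 spots 56.8%, 80.0%, 24.5% and 61.6% held no member UMI, in the same order, and of deep neocortical spots 65.5%, 75.6%, 62.1% and 74.4%. No spot of CA1, CA3, the dentate layer or the neocortex reached the 10th percentile of the thalamic spots of its library. In the Cabp7-C1ql2 region 0 spots of young ethanol, 0 of young vehicle, 4 of aged ethanol and 2 of aged vehicle did.

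As a median percent of their own thalamic level, Ramp3 and Rgs16 stood above the other members in the neocortex. In deep neocortical spots Ramp3 had 30.6 CPM in young ethanol, 33.7 in young vehicle, 36.4 in aged ethanol and 28.9 in aged vehicle, against 12.9, 16.9, 16.6 and 13.5 in upper neocortical spots. That deep level was a median of 8.30% (7.62% to 9.91%) of the thalamic one, when the median for Prkcd was 0.896%. Rgs16 stood at a median of 4.69% of its thalamic level in deep and 4.40% in upper neocortex. The members' proportions to each other thus differed between thalamus and neocortex.

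In the reticular nucleus, named from Six3, Pvalb and Gad1, Ramp3 was near its thalamic level while other members were scarce. Ramp3 had 407 CPM there in young ethanol (44 spots), 369 in young vehicle (18 spots), 426 in aged ethanol (33 spots) and 300 in aged vehicle (5 spots). Gbx2 and Slitrk6 had 0 UMIs there in each of the 4 libraries, where 3 UMIs stand for 3.86, 10.3, 5.89 and 39.2 CPM in the same order. Tcf7l2 had 23.2, 24.1, 31.4 and 0 CPM, the last from a library with 5 such spots.

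Tcf7l2 was also present in several groups of spots beyond the relay thalamus. In the habenular cluster it had 306 CPM in young ethanol and 285 in aged ethanol, where Prkcd had 17.2 and 59.1 CPM and Gbx2 2.64 and 18.8 CPM. A cluster led by Ctxn3, Cbln1 and Lypd6b, which carried the relay list at 1440 CPM in young vehicle (35 spots) and 1250 CPM in aged vehicle (39 spots), had 379 CPM and 418 CPM of Tcf7l2 in these sections. Tnnt1 had 13.2 and 19.5 CPM in the same spots. In white matter, whose oligodendrocytes also use Tcf7l2 as they mature, it had 24.2 CPM in young ethanol, 35.6 in young vehicle, 25.9 in aged ethanol and 44.4 in aged vehicle, a median of 6.78% of its thalamic level. Synpo2 in white matter stood at a median of 5.26% (4.54% to 9.02%) of its thalamic level and Lef1 at 4.98%. In ependymal spots Synpo2 had 15.2 CPM in young ethanol, 50.3 in young vehicle, 34.1 in aged ethanol and 54.9 in aged vehicle. These came from 3, 21, 5 and 16 UMIs.

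**Figure D3:**
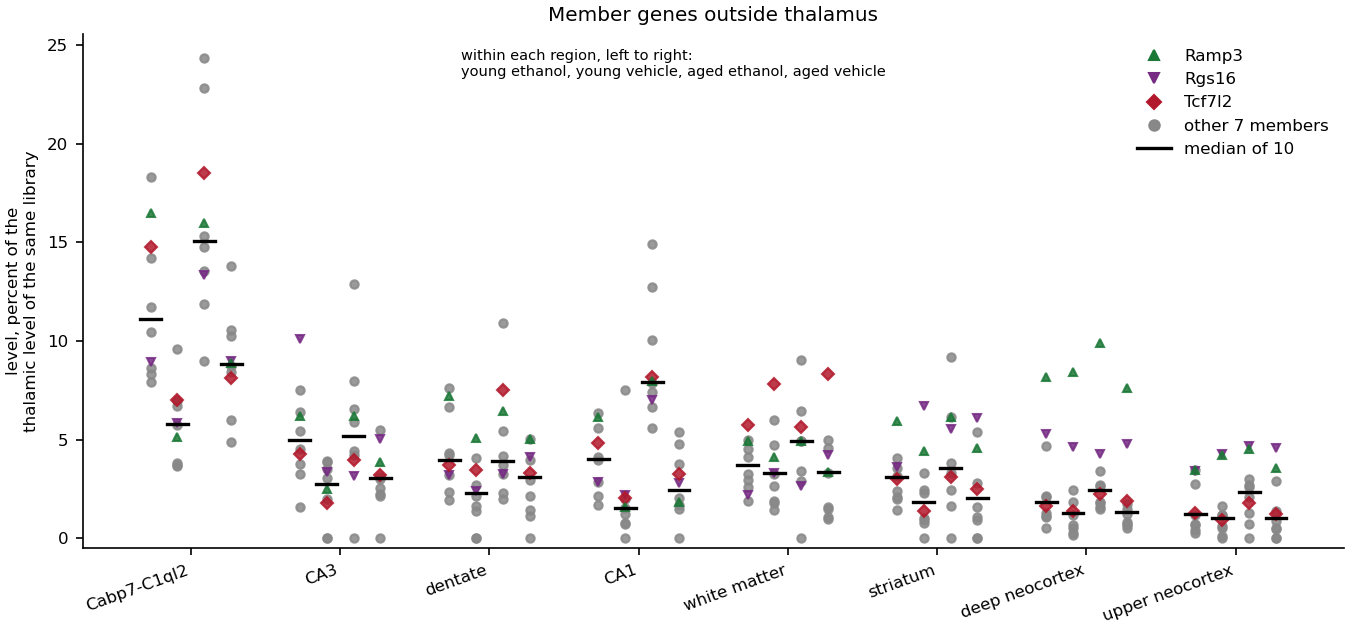
Level of each member outside the relay thalamus as percent of its thalamic level in the same library, by region, with Ramp3, Rgs16 and Tcf7l2 in colour and the median of the 10 members in black. Ramp3 stands above the others in deep neocortex (median 8.30%). In white matter Tcf7l2 has the highest median (6.78%, 5.63% to 8.34% over the libraries), and the range of Synpo2 overlaps it (5.26%, 4.54% to 9.02%).

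Genes that took no part in clustering were ranked by how closely their levels followed the mean profile of the members, over 89 pairs of cluster and library and 10128 genes. Vav3, which encodes an exchange factor of small GTPases, came first (Pearson 0.76), followed by the small GTPase gene Rab37 (0.73), Aldh1a1, a retinaldehyde dehydrogenase (0.73), the homeobox gene Zfhx3 (0.73) and Patj, a scaffold of cell junctions (0.72). Adgrf5 (0.68), the pacemaker channel gene Hcn4 (0.67), Lhfp (0.65), Paqr8 (0.65) and Rbms3 (0.64) completed the 10. Rab37 was the gene nearest to Prkcd, Tnnt1 and Ramp3, Vav3 to Gbx2 and Shox2, Zfhx3 to Synpo2, Adgrf5 to Rgs16, Hcn4 to Slitrk6, Syt9 to Lef1 and Aldh1a1 to Tcf7l2. Each member was also set against the mean profile of the other members, with itself left out. By this measure Ramp3 was the least like the others (0.67) and Shox2 and Prkcd the most (0.91 each). The clusters of a library share its depth and its section, so these values are descriptions.

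Of the Wnt and beta-catenin pathway, 6 of 30 genes tested were higher in thalamic than in neocortical spots by the same rule and 6 were lower, where 4.36 percent of all genes were higher and 6.47 percent lower, with a median log2 ratio of 0.12. Among the ligands Wnt3 was higher by a median of 4.16 (20.0 CPM in young ethanol, 18.8 in young vehicle, 16.7 in aged ethanol and 13.8 in aged vehicle). The receptor genes Fzd8 (2.66) and Lgr5 (2.45) and the feedback inhibitor gene Nkd1 (1.63) were higher too. Lower were Dkk3 (-4.73), of the Dickkopf family of Wnt inhibitors, the R-spondin genes Rspo2 (-4.48) and Rspo1 (-4.32), which encode enhancers of Wnt signals, and the ligand gene Wnt10a (-3.78).

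Close relatives of the members did not share their pattern as a group. Of 23 such genes tested 2 were higher in thalamus and 8 lower, with a median of -0.26. Of all genes tested 4.36 percent were higher and 6.47 percent lower. Prkch (4.28), another protein kinase C gene, and Rgs8 (2.34) were higher. The cardiac troponin T gene Tnnt2 (-4.07), Synpo (-2.93), the troponin C gene Tnnc1 (-1.76) and Prkca (-1.70) were lower, so that Tnnt1 and Tnnt2, and Synpo2 and Synpo, lay on opposite sides.

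Other genes known from thalamic development and identity were higher for 4 of 13 and lower for 2, with a median of 0.77. The shares of all genes tested were 4.36 percent higher and 6.47 percent lower. Lhx9 (5.09), Zic4 (4.57), Calb2 (3.46) and Ebf1 (2.14) were higher, and Nr4a2 (-4.84) and Lhx2 (-2.45) lower. Of 16 genes of relay neuron excitability 6 were higher and 4 lower, with a median of 0.92, beside the same shares of all genes. The pacemaker channel gene Hcn4 (5.12), the GABA-A subunit gene Gabra4 (2.30) and the T-type calcium channel gene Cacna1g (2.00) were among the higher ones. Cacna1i (-3.11), Cacna1h (-2.28) and Slc17a7 (-1.16) were among the lower ones, so Cacna1g lay on the opposite side from its relatives Cacna1i and Cacna1h.

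Over whole sections the members were higher in ethanol than in vehicle at both ages, and within thalamic spots the median ratio was near 0. Prkcd had 252 CPM over the section of young ethanol and 76.4 over that of young vehicle, a log2 ratio of 1.72 (1.67 to 1.77). Gbx2 had 9.91 CPM in young ethanol and 2.25 in young vehicle, a log2 ratio of 2.14 (1.85 to 2.43). In the aged pair Prkcd had 231 CPM in ethanol and 105 in vehicle, and Gbx2 8.996 in ethanol and 4.04 in vehicle.

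By the rule for pairs of libraries, at least 2-fold with 50 or more UMIs in the library with more, 8 of 10 members were higher in young ethanol than in young vehicle over the section, where 1.23 percent of 14553 genes were higher. When each spot's CPM was averaged in place of summing UMIs, it was 4 of 10. The aged pair gave 6 of 10, where 0.687 percent of 14268 genes were higher. The members' median log2 ratio was 1.37 in the young and 1.10 in the aged pair, and that of all genes 0.00 and -0.07. Tnnt1 (0.73 young, 0.57 aged) and Tcf7l2 (0.84 young, 0.35 aged) were under 2-fold at both ages, and Lef1 (0.75) and Ramp3 (0.96) in the aged pair. The thalamus took up 16.5% of spots in young ethanol and 7.40% in young vehicle, and 18.4% in aged ethanol and 7.77% in aged vehicle.

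In thalamic spots 0 of 10 members were 2-fold apart in the young pair, where 1.64 percent of 10468 genes were, and 0 of 10 in the aged pair, where 1.48 percent of 9579 genes were. The median log2 ratio of ethanol over vehicle was 0.12 in the young and 0.04 in the aged pair. The counting interval lay above 0 for 5 members and below 0 for 2 in the young pair, and above 0 for 3 and below 0 for 3 in the aged pair. Rgs16 (0.20 young, 0.32 aged) and Shox2 (0.27 young, 0.25 aged) had intervals above 0 at both ages, Tnnt1 and Tcf7l2 (-0.12 young, -0.21 aged) below 0. Slitrk6 (0.51) and Gbx2 (0.46) were the highest in the young pair, with 0.16 and 0.12 in the aged pair. White matter markers also differed between these thalamic spots: the 6 genes, with 6 of 6 detected, summed to 7235 CPM in young ethanol and 10579 in young vehicle, and to 7208 in aged ethanol and 10482 in aged vehicle, and their part in the members' ratios was not tested.

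**Figure D4:**
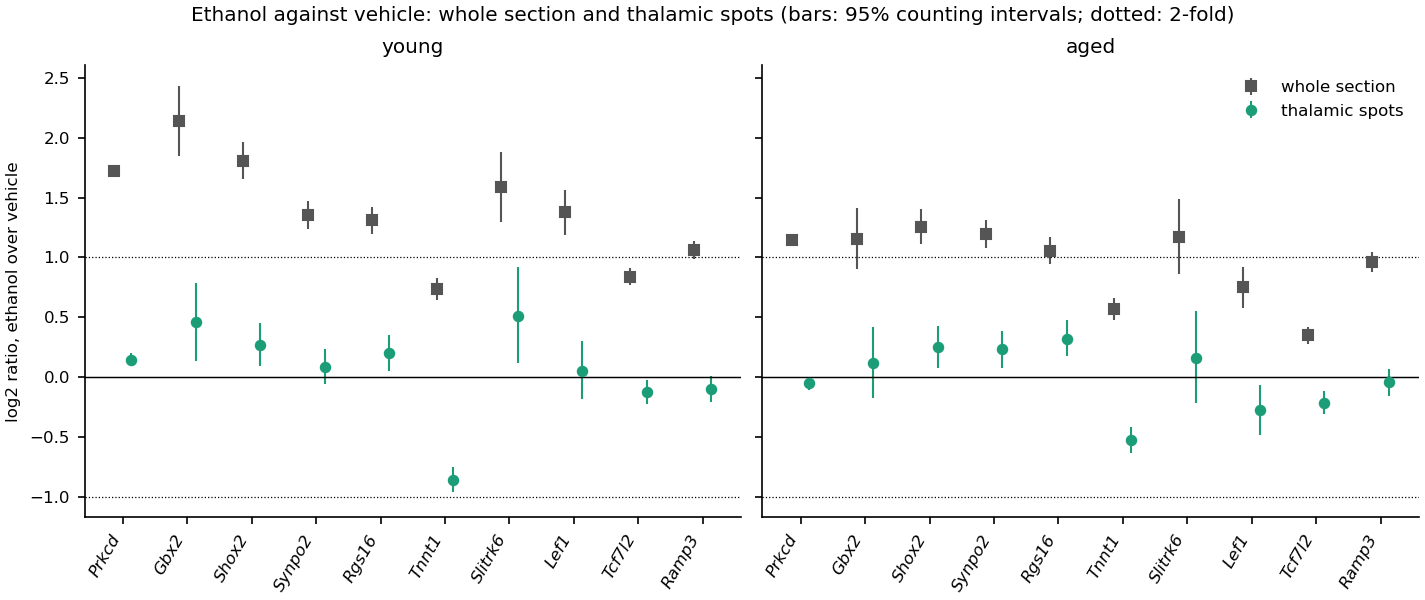
Log2 ratio of ethanol over vehicle for each member, over the whole section and within thalamic spots, in the young and the aged pair, with 95% counting intervals and dotted lines at 2-fold. Over the section the points lie above 0 (median 1.37 young, 1.10 aged), and in thalamic spots their median is near 0 (0.12 young, 0.04 aged), with Tnnt1 the farthest from 0 at both ages.

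Tnnt1 was the member farthest from 0, with a log2 ratio of ethanol over vehicle in thalamic spots of -0.86 (-0.96 to -0.75) in the young pair and -0.53 (-0.63 to -0.42) in the aged pair. It was found in 54.9% of thinned thalamic spots in young ethanol and 84.5% in young vehicle, and in 61.1% in aged ethanol and 77.8% in aged vehicle, against 2.80%, 1.67%, 3.52% and 2.12% of neocortical spots in the order young ethanol, young vehicle, aged ethanol, aged vehicle. Without thinning, the thalamic shares were 81.1%, 92.0%, 76.2% and 89.5% in that order.

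The difference in Tnnt1 was also present inside subregions. In the Sorcs3-Wnt9b subregion it had 188 CPM in young ethanol and 693 in young vehicle, and 394 in aged ethanol and 609 in aged vehicle. In the Tnc-Rgs14 subregion it had 220 CPM in young ethanol and 459 in young vehicle, and 258 in aged ethanol and 377 in aged vehicle. Each of the 4 subregions with 30 or more spots per library had the lower value in ethanol at both ages, with a counting interval below 0.

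On the log2 scale the young ratios of Tnnt1 were -1.25 (Calb2-Cbln4), -1.04 (Myoc-Dcn), -1.88 (Sorcs3-Wnt9b) and -1.06 (Tnc-Rgs14), each past 2-fold, where 1.09, 0.472, 0.403 and 0.205 percent of genes tested in these subregions were 2-fold lower in ethanol. The aged ratios, -0.97, -0.73, -0.63 and -0.55 in that order, were all under 2-fold, where 1.12, 0.571, 0.949 and 0.399 percent of genes were 2-fold lower. In the Syt2-Pvalb subregion the sign was the other way, 0.32 young and 0.97 aged, from 4 and 5 spots in the vehicle sections. The white matter list differed within the subregions too, with 6305 CPM in young ethanol and 10780 in young vehicle, and 5521 in aged ethanol and 10618 in aged vehicle, in the Calb2-Cbln4 subregion, and less in the Sorcs3-Wnt9b subregion, with 6027 CPM in young ethanol and 7544 in young vehicle, and 5916 in aged ethanol and 7282 in aged vehicle. The reticular list (Six3, Ecel1, Pvalb, Gad1) summed to 497 CPM in thalamic spots of young ethanol and 122 in young vehicle, with Six3 at 0 in young vehicle, and to 451 in aged ethanol and 154 in aged vehicle. The part of myelin, of neighbouring nuclei and of the plane of section in the Tnnt1 values was not tested.

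No other member had its counting interval on 1 side of 0 in all 4 of these subregions at both ages. Shox2 was higher in ethanol in 4 of 4 subregions in the young pair (0.02 to 0.36) and 4 of 4 in the aged pair (0.17 to 0.88), and Rgs16 in 4 of 4 at both ages (0.10 to 0.48 young, 0.23 to 0.51 aged), with counting intervals above 0 in 1 to 3 of the 4. Tcf7l2 was lower in 4 of 4 in the aged pair (-0.40 to -0.24), with 4 intervals below 0, and in 3 of 4 in the young pair, with 1 interval below 0. Prkcd was higher in 4 of 4 in the young pair (0.09 to 0.25) and in 2 of 4 in the aged pair.

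**Figure D5:**
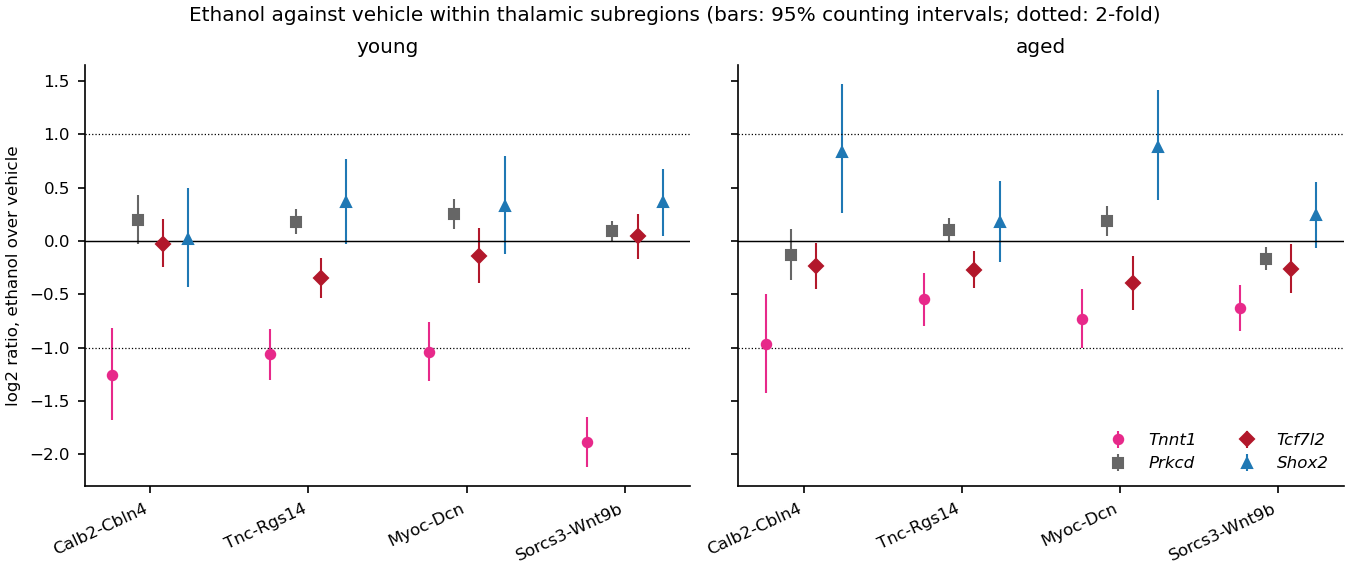
Log2 ratio of ethanol over vehicle for Tnnt1, Prkcd, Tcf7l2 and Shox2 in the 4 thalamic subregions with 30 or more spots in each library, young and aged pairs, with 95% counting intervals. Tnnt1 lies below 0 in each subregion at both ages (-1.88 to -1.04 young, -0.97 to -0.55 aged), while Prkcd stays between -0.17 and 0.25.

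Hippocampal and neocortical spots of the ethanol sections carried more of most members than those of the vehicle sections. In hippocampal spots Prkcd, Tcf7l2 and Ramp3 reached the UMI minimum in the young pair, and 1 of these 3, Ramp3, was 2-fold higher in ethanol, where 0.246 percent of genes were. Ramp3 had 24.3 CPM in young ethanol and 10.5 in young vehicle, a log2 ratio of 1.21. In the aged pair Synpo2, Rgs16 and Tnnt1 reached it too, and 3 of the 6 were 2-fold higher in ethanol, where 0.709 percent of genes were. These were Prkcd, with 88.6 CPM in aged ethanol and 41.4 in aged vehicle, Synpo2, with 24.1 and 8.61, and Ramp3, with 26.5 and 11.6. Over the 10 members the hippocampal median log2 ratio was 1.10 in the young pair, with 10 above 0, and 1.14 in the aged pair, with 9 above 0. Tnnt1 was the closest to 0 at both ages, with 9.16 CPM in young ethanol and 8.67 in young vehicle, and 17.9 in aged ethanol and 18.02 in aged vehicle. In neocortical spots the median was 0.76 in the young pair, with 8 above 0, and 0.67 in the aged pair, with 10 above 0. In the young pair Ramp3 (-0.24, -0.44 to -0.04) and Slitrk6 (-0.27, -2.12 to 1.53) were lower in ethanol.

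Between aged and young sections the members were less than 2-fold apart over whole sections and in all thalamic spots together, and their median was higher in aged hippocampal spots. Over whole sections 0 of 10 members were 2-fold apart between aged and young vehicle, where 0.357 percent of genes were, and 0 of 10 between aged and young ethanol, where 0.492 percent were. In thalamic spots it was 0 of 10 for vehicle, where 0.218 percent of genes were 2-fold apart, and 0 of 10 for ethanol, where 0.42 percent were. Within the Sorcs3-Wnt9b subregion 1 member, Tnnt1, was 2-fold higher in aged ethanol (394 CPM) than in young ethanol (188 CPM). There 0.231 percent of genes were 2-fold higher. Lef1 had 113 CPM in thalamic spots of aged vehicle and 77.8 in those of young vehicle, a log2 ratio of 0.54 (0.26 to 0.82), and 93.2 in aged ethanol and 80.8 in young ethanol, a ratio of 0.21 (0.04 to 0.37). Tcf7l2 was higher in aged thalamic spots by 0.22 (0.10 to 0.34) for vehicle and 0.13 (0.06 to 0.20) for ethanol. For the other members the thalamic fold of aged over young lay between 0.904 (Tnnt1) and 1.29 (Gbx2) for vehicle, and between 0.917 (Slitrk6) and 1.14 (Tnnt1) for ethanol. Gbx2 over the whole section had 4.04 CPM in aged vehicle and 2.25 in young vehicle, a log2 ratio of 0.84, from 186 and 119 UMIs.

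In hippocampal spots the members' median log2 ratio of aged over young was 0.81 for ethanol, with 10 above 0, and 0.57 for vehicle, with 8 above 0. For vehicle, Gbx2 had 1 UMI in aged and 0 in young spots. It fell below 0 only because that 0 was set to 3 UMIs, and the median rests on this too. Of 6 members that reached the UMI minimum for ethanol 1, Synpo2, was 2-fold higher in aged spots, with 24.1 CPM in aged ethanol and 11.9 in young ethanol, where 0.271 percent of genes were 2-fold higher. Of 3 for vehicle 1, Tnnt1, was, with 18.02 CPM in aged vehicle and 8.67 in young vehicle, where 0.0703 percent of genes were. In neocortical spots the median was 0.49 for ethanol, with 9 above 0, and 0.32 for vehicle, with 8 above 0.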

How the data were processed

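Per the labels, 1 Visium library was made for each pairing of age and gavage. The authors deposited raw UMI counts of 32285 genes in 11064 spots and these counts were analysed as they stand. The matrix names spaceranger 1.3.1, per the file headers, whereas the submitters' processing notes name Space Ranger 2.0.0 and mm10; which applies was not settled. The annotation release is not given in the sources used here, nor whether reads were subsampled between libraries. No doublet caller was run.

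Spots with 500 or more UMIs were kept (10942 spots, 45995677 to 58305713 UMIs per library), scaled to 10000 and clustered on 1550 features without the members (30 principal components, 15 neighbours, Leiden resolution 1, 24 clusters). Clusters were named from marker lists that hold no member, and 1373 thalamic spots were clustered again without the members. UMIs were summed by region and library and given as CPM, with exact Poisson, conditional binomial or Clopper-Pearson 95% intervals. A sum of 0 was set to 3 UMIs in ratios. The calculation of ratios was tested on simulated counts.

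Members and lists were chosen with earlier results of these data known. Named genes were the 10 members; the 10 genes most like their mean profile, and the nearest to each, among genes with 200 or more UMIs per library, on log2(CPM + 1) over clusters of 10 or more spots; and up to 4 genes per pathway list that met the rule, by the library closest to 0, with any others chosen after their values were seen. Python 3.11.15 with numpy 2.4.6, scipy 1.17.1, pandas 2.3.3, scikit-learn 1.9.0, leidenalg 0.10.2 and matplotlib 3.10.9 was used.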

Additional observations from a re-analysis of the deposited data

Results flagged for a closer look

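Lef1 ran in opposite directions at the 2 ages in the Sorcs3-Wnt9b subregion of the thalamus. It had 91.9 CPM in young ethanol and 62.8 in young vehicle, a log2 ratio of 0.55 (0.06 to 1.05), and 76.7 CPM in aged ethanol and 123 in aged vehicle, a log2 ratio of -0.68 (-1.18 to -0.19). The values rest on 99 and 56 UMIs in the young pair and 50 and 124 UMIs in the aged pair, from 1 library each. The difference between the ages was not tested.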

How the results depend on the processing

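No paired analysis was possible because each pairing of age and gavage has 1 library and no result comes from a test. Of 560 member ratios recomputed under the alternatives, 39 changed sign, each one at most 0.27 from 0 on the log2 scale as reported, and no ratio at 2-fold or more, all of them over the section, did. With the mean over spots of each spot's CPM, 4 members in place of 8 were 2-fold apart between young ethanol and young vehicle over the section. At Leiden resolution 0.5 the hippocampal level was 6.199% of the thalamic level in place of 3.89%. At 1.5-fold, 1 member in place of 0 (Tnnt1) was called between young ethanol and young vehicle in thalamic spots, and 2 in place of 0 (Gbx2 and Lef1) between aged and young vehicle over the section. Leaving out each library in turn gave 3.24% to 4.43% for the hippocampus and 1.21% to 1.67% for the neocortex, and 10 members in each case for both regional counts. With the 5 subregions weighted equally, a choice made after seeing the data, the thalamic Tnnt1 ratio of ethanol over vehicle was -0.79 young and -0.22 aged, and with the Cbln1-Lypd6b cluster added, chosen likewise, -0.65 and -0.30. Spots chosen by the marker list alone numbered 542 in young ethanol, 315 in young vehicle, 607 in aged ethanol and 329 in aged vehicle. Depth limited the hippocampal counts, where 3 members in the young pair and 6 in the aged pair reached the UMI minimum.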
